A study of Homo sapiens with 4 samples.

Results

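The MYC, MAX and MXD network is a family of DNA-binding proteins that compete for 1 common partner, MAX. Its 10 genes here are MYC, MYCN, MYCL, MAX, MXI1, MXD1, MXD3, MXD4, MNT and MLX, chosen by name from 17718 genes that the array spots could be matched to by RefSeq accession. They were covered by 21 of 41000 non-control probes, in 30 spots on each array. RNA came from OVSAYO cells, a human cell line of ovarian clear cell carcinoma (CCC), and was hybridised to 4 single-colour Agilent whole genome arrays, 1 for each of 4 conditions. The cells were transfected with a non-specific control siRNA (NS-si) or with siRNA against the transcription factor Sp1 (Sp1-si) by lipofection and cultured for 40 h according to the sample labels. Cells of each kind were then left without CoCl2 or received fresh medium with 0.5 mM CoCl2, a hypoxia-mimicking agent, for 4 h (NS-si → CoCl2 and Sp1-si → CoCl2). The figure legend of the study gives a shorter culture time than the labels, and a vehicle control for the cells without CoCl2. All conditions are 1 cell line with 1 array each, so no ratio has a replicate check, no test was run and no p-value is given. Differences between conditions cannot be told apart from differences between single cultures and arrays, and precision is limited by the number of arrays.

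MYC, MYCN and MYCL bind DNA as dimers with MAX at a short sequence called the E-box and raise transcription of genes for ribosome building, metabolism and the cell cycle. MXI1, MXD1, MXD3, MXD4 and MNT also pair with MAX at the E-box but recruit the SIN3 corepressor and lower transcription, so that they oppose MYC. MLX pairs with MNT, MXD1 and MXD4 and, above all, with the glucose-responsive factors MLXIP and MLXIPL. In hypoxic cells, HIF1 is known to oppose MYC in part by raising MXI1. Sp1 binds GC boxes. The arrays therefore allow the question of how the transcripts of the network stood under CoCl2, after Sp1 silencing, and under both.

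Signals below are the processed signals of the scanner software, in arbitrary units and not scaled between arrays. Ratios are differences of log2 signals after the 75th percentile of each array was subtracted, and a log2 ratio of 1 (2-fold) was used as the threshold. The ± value after a ratio is an SD between spots, either of the probe itself where it had 10 spots or expected from the 53 probes with 10 spots of nearest signal. It covers the spread within an array only. Arrays differed in brightness, with 75th percentile signals of 1142 for NS-si, 1100 for Sp1-si, 977 for NS-si → CoCl2 and 1285 for Sp1-si → CoCl2. The last of these also had the fewest probes well above background, 30994 against 32064 to 32433 on the others. Without scaling, the median log2 ratio of all probes moved from 0.02 to -0.21 for CoCl2 in NS-si cells, from -0.03 to 0.20 for CoCl2 in Sp1-si cells, from -0.01 to -0.07 for Sp1-si without CoCl2 and from -0.08 to 0.32 for Sp1-si under CoCl2. Signs that depend on this choice are named beside the values. The siRNA target was low in both Sp1-si arrays: the 10-spot probe of SP1 read 553 in NS-si against 39.2 in Sp1-si cells, and 429 against 38.7 under CoCl2. The 5 CCC markers reported here (NAPSA, PAX8, ANXA4, GPX3 and ARG2) were well above background on every array, with summed signals of 71953 to 115497. The sums hide changes of single markers. For Sp1-si, 2 of the 5 were past the threshold upward and 1 downward, both without and under CoCl2. Of all genes, 6.2% and 6.18% were past it without CoCl2 and 7.19% and 8.03% under CoCl2. Markers of other tumours or cells were mixed. WT1, the leukocyte gene PTPRC and the endothelial genes PECAM1 and CDH5 were called well above background nowhere, whereas the receptor genes ESR1 and PGR, the leukocyte genes CD68 and CD3E, the endothelial gene VWF and 3 fibroblast genes (COL1A2, DCN and LUM) were so on all 4 arrays. The summed signal of WT1, ESR1 and PGR was 71.6 to 97.0 and that of the 3 endothelial genes 43.6 to 61.8. The summed signal of 3 fibroblast markers was 872 in NS-si cells, 374 with Sp1-si, 648 in NS-si → CoCl2 and 440 in Sp1-si → CoCl2 cells, and that of 3 leukocyte markers, mostly CD68, was 975, 464, 1064 and 732. These 2 sums were lower in Sp1-si cells, and the part of such markers in the ratios below was not tested.

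Against the NS-si array, the 9 probes of the MAX-binding repressors MXI1, MXD1, MXD3, MXD4 and MNT had log2 ratios above 0 with CoCl2 alone (0.05 to 1.86) and with Sp1-si alone (0.17 to 1.64), the lowest being the brighter MXD3 probe, which turned negative with CoCl2 when the arrays were not scaled. The dimmer MXD3 probe gave only bounds here, whose sign could only be positive. Between the other arrays the signs of the 9 probes were mixed. They ran from -0.73 to 1.60 for CoCl2 in Sp1-si cells and from -1.52 to 1.38 for Sp1-si under CoCl2. The 10-spot MYC probe stayed between -0.05 and 0.33 in the 4 comparisons. MXI1 was 3.63-fold higher with CoCl2 in NS-si cells (log2 ratio 1.86 ± 0.04) and 3.12-fold higher after Sp1 silencing alone (1.64 ± 0.03), and 9.44-fold higher with both. MXD1, MXD4 and MNT were also higher than in NS-si cells in either single treatment, by log2 ratios of 0.48 to 1.51 over their 6 probes. MLX was lower with CoCl2 in NS-si cells on each of its 3 probes, and both probes of MYCN were more than 2-fold off in that comparison but in opposite directions. Of the 21 probes, 20 were well above background on all 4 arrays and none had a saturated spot or an outlier flag. The 75th percentile scaling left 15 of 21 log2 ratios above 0 for CoCl2 in NS-si cells, 13 for CoCl2 in Sp1-si cells, 15 for Sp1-si without CoCl2 and 16 for Sp1-si under CoCl2, where 52.1%, 47.0%, 48.6% and 44.6% of all probes were above 0.

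**Figure D1:**
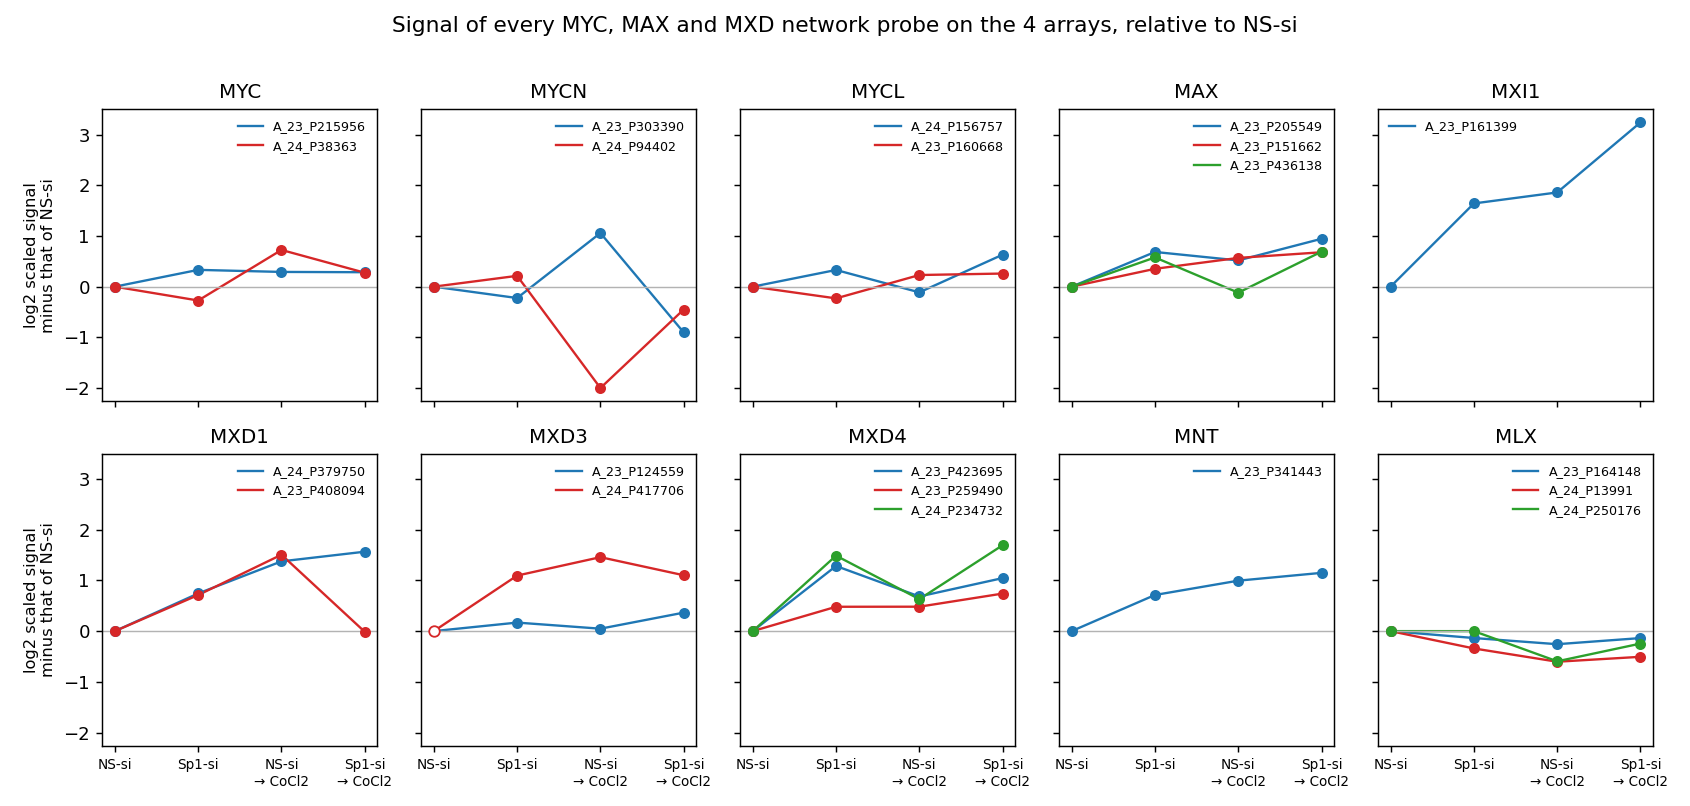
Log2 scaled signal of each of the 21 network probes on the 4 arrays, minus the value of the same probe on the NS-si array. Each line joins the 4 values of 1 probe, filled points are well above background and the open point (MXD3 in NS-si cells) is not. MXI1 stands highest in Sp1-si → CoCl2 cells, at 3.24 above NS-si, and the 2 probes of MYCN part in opposite directions in NS-si → CoCl2 cells.

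With CoCl2 in NS-si cells, 5 of 21 probes were at least 2-fold higher (MYCN, MXI1, both of MXD1 and 1 of MXD3) and 1 was at least 2-fold lower (MYCN), where 4.53% of all probes were past the threshold upward and 4.34% downward. The higher MYCN probe fell short of it without scaling (0.83) and with the normexp background correction (0.99). The MXD3 probe, a bound that could only pass upward, fell short with normexp (0.38). Of 18 calls of member probes over all comparisons, the other 16 stayed past the threshold under each of the 7 other scalings, background corrections and spot filters. By the brightest probe of each gene, 3 of 10 genes were past it upward (MYCN, MXI1 and MXD1) and none downward, against 4.21% and 3.54% of all genes. This choice read MYCN from the probe that stood higher on the NS-si → CoCl2 array itself (scaled log2 signal 1.91, against -1.21). On both Sp1-si arrays the other MYCN probe was the brighter, and its ratio here was -1.999, past the threshold downward. With CoCl2 in Sp1-si cells only MXI1 passed, upward, with 3.72% of all probes past the threshold upward and 6.17% downward, and 3.69% and 3.92% of genes. For Sp1-si without CoCl2, 3 probes passed upward (MXI1 and 2 of MXD4) and none downward, against 5.5% and 5.88% of all probes. MXI1 and MXD4 were the 2 genes past it by their brightest probe, against 6.2% of all genes upward and 6.18% downward. For Sp1-si under CoCl2, 3 probes passed upward (MXI1, MYCN and MXD4) and 2 downward (MYCN and MXD1), against 6.31% and 9.64% of all probes. By brightest probe, MXI1 was past it upward and MYCN downward, against 7.19% and 8.03% of all genes. The other MYCN probe was past it upward (1.55). In the difference of both CoCl2 ratios (Sp1-si minus NS-si), 1 probe of MYCN was past 1 upward, and the other probe of MYCN and 1 of MXD1 downward, out of 20 with a value, where 1.05% and 4.87% of all probes were. The median log2 ratio over the member probes was 0.52, 0.20, 0.35 and 0.19 in the 4 comparisons in the order above, beside 0.02, -0.03, -0.01 and -0.08 over all probes.

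Promoter sequences are shown for the genes whose brightest probe passed the threshold in any comparison, MYCN, MXI1, MXD1 and MXD4, because the letters that HIF, the MYC and MAX dimers and Sp1 are known to bind can be read in them. They are the 250 bases before each transcript start in the RefSeq table for GRCh38.p14, 5′ to 3′ on the strand of the gene. Capitals mark matches on either strand to ACGTG (the core of the hypoxia response element, HRE), CACGTG (the E-box, which contains ACGTG) or GGGCGG (the GC box). MXI1 has 3 listed starts. Which of them the MXI1 probe reads was not given in the sources used here.
MYCN, chr2:15940300-15940549, plus strand: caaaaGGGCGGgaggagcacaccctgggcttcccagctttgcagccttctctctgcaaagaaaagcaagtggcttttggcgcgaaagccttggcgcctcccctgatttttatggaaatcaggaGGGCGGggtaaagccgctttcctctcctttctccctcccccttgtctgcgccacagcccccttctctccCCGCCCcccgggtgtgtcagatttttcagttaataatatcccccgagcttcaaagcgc
MXI1 window 1, chr10:110207355-110207604, plus strand: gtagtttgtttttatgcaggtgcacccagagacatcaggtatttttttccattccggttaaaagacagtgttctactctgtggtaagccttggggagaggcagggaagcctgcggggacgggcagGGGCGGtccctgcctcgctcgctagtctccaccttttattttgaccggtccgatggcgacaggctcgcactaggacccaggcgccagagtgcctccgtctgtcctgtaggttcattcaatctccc
MXI1 window 2, chr10:110209981-110210230, plus strand: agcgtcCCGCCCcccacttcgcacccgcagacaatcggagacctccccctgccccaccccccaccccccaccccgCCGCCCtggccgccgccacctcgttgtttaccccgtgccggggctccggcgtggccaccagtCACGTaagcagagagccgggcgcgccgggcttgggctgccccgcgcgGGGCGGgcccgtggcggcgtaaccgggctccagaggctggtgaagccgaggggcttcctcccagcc
MXI1 window 3, chr10:110225746-110225995, plus strand: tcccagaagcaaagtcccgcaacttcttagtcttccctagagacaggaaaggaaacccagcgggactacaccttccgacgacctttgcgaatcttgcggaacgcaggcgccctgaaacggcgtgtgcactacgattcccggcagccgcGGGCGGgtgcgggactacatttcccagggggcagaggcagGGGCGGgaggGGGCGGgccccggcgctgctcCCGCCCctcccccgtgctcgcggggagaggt
MXD1, chr2:69914859-69915108, plus strand: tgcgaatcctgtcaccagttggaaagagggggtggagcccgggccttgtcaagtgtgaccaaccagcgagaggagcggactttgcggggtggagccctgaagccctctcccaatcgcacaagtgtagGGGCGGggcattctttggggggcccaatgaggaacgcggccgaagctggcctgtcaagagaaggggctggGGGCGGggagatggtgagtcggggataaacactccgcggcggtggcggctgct
MXD4, chr4:2262110-2262359, minus strand: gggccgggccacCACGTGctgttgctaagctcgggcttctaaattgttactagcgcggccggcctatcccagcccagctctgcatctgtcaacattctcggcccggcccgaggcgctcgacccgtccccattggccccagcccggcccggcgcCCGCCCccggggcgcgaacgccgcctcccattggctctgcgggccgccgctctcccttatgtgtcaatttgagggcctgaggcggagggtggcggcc
Window 2 of MXI1 held an HRE core 113 bases before the start together with 3 GC boxes, and window 3 held 4 GC boxes and no HRE core. MXD4 held an E-box 238 bases before its start. The windows of MYCN and MXD1 held GC boxes, 3 and 2, and neither other motif.

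The table listed 12 windows for 9 of the 10 genes, all but MYC. An E-box was found in 3 of the 12 (MXD4, MNT and MLX), an HRE core in 5 and a GC box in 11. Over the 35116 promoters of the table, 6.34% held an E-box, 18.5% an HRE core and 42.6% a GC box in the same length. An E-box counts as an HRE core here because its letters contain it on both strands, so that the windows of MXI1 and MAX were those with an HRE core outside an E-box. These matches describe letters and say nothing on binding in these cells.

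**Figure D2:**
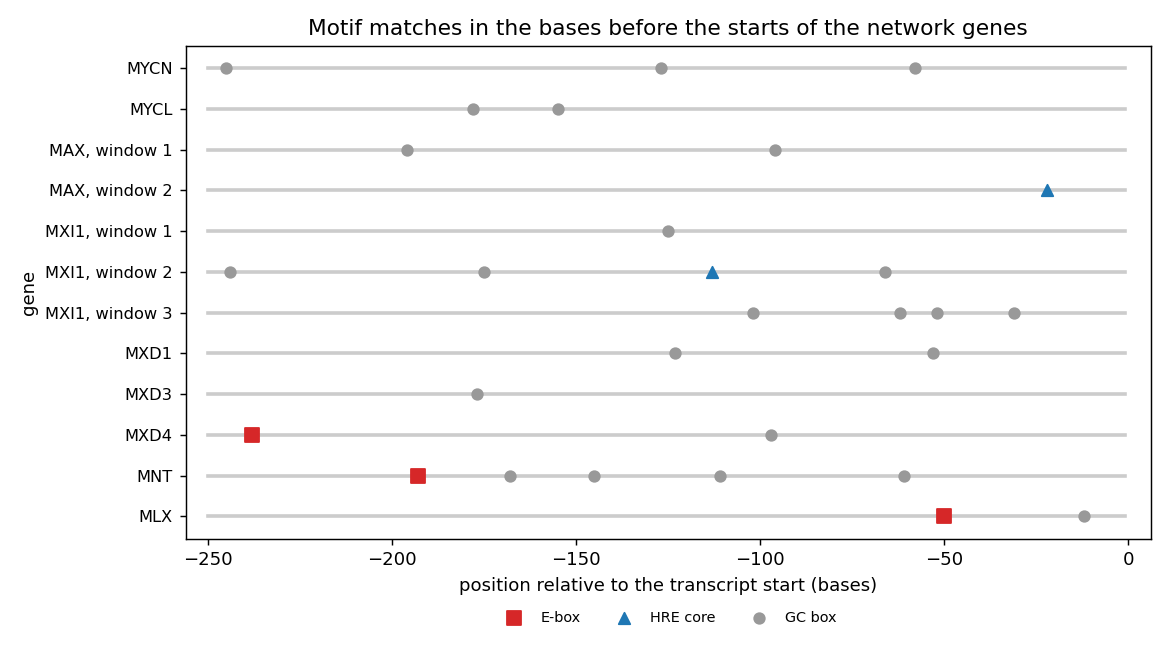
Position of each motif match before the transcript start, in bases, for the 12 windows of 9 network genes. Grey lines are the windows, squares E-boxes, triangles HRE cores outside an E-box and circles GC boxes. E-boxes occur in 3 windows and GC boxes in 11.

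MYC is the best known member, an activator that most dividing cells need. Its 10-spot probe (A_23_P215956) read 21955 in NS-si cells, 26607 with Sp1-si, 22967 in NS-si → CoCl2 and 30097 in Sp1-si → CoCl2 cells, as means over spots. On the array in NS-si cells the single spots ran from 20755 to 22800, and in Sp1-si → CoCl2 cells from 27587 to 31351. After scaling, the NS-si array was the lowest and the other 3 lay close together. The log2 ratio was 0.29 ± 0.04 with CoCl2 in NS-si cells and 0.33 ± 0.03 for Sp1-si without CoCl2. In Sp1-si cells CoCl2 gave -0.05 ± 0.03, and Sp1-si under CoCl2 gave -0.01 ± 0.02. The last pair of values was within 2 SD of 0, and both turned positive without scaling and with median scaling, the second also with 3 other settings. In order, NS-si was below Sp1-si → CoCl2 by more than 2 SD, and the steps from there to NS-si → CoCl2 and to Sp1-si were within 2 SD. The dim second probe of MYC (A_24_P38363) read 31.8, 25.3, 44.9 and 43.3 in the same order of arrays. Its CoCl2 ratios were 0.72 ± 0.12 with NS-si and 0.55 ± 0.13 with Sp1-si, and its Sp1-si ratios were negative, -0.27 ± 0.15 and -0.45 ± 0.13, so that in these 4 ratios both probes had the same sign only for CoCl2 in NS-si cells and for Sp1-si under CoCl2. The first of these Sp1-si ratios turned positive with the normexp background correction. Over the 3 ratios to NS-si cells, the probes nearest to the bright MYC probe among 20920 candidates were those of MCPH1 (distance 0.01 on the log2 scale), STYX (0.03) and SLCO3A1 (0.03).

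MYCN, the paralog known from neuroblastoma, was the member with the widest disagreement between probes. Its first probe (A_23_P303390) read 2068 in NS-si cells, 1705 with Sp1-si, 3682 in NS-si → CoCl2 and 1245 in Sp1-si → CoCl2 cells. The second (A_24_P94402) read 1972, 2202, 422 and 1624. On the first probe NS-si → CoCl2 was the highest array, and on the second it was the lowest. CoCl2 in NS-si cells gave a log2 ratio of 1.06 ± 0.03 on the first and -1.999 ± 0.041 on the second probe, and Sp1-si under CoCl2 gave -1.96 ± 0.03 and 1.55 ± 0.04. In the comparisons without the NS-si → CoCl2 array they were closer, with CoCl2 ratios in Sp1-si cells of -0.68 ± 0.03 and -0.66 ± 0.03 and Sp1-si ratios without CoCl2 of -0.22 ± 0.03 and 0.21 ± 0.03. Both probes carry the same RefSeq accession in the array annotation, and where each lies in the transcript was not given in the sources used here. No direction for MYCN under CoCl2 in NS-si cells can be drawn from both probes together: the mean over them was -0.47.

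MYCL, another paralog, was dim. Its probes read 75.5, 91.4, 59.8 and 132 (A_24_P156757) and 18.2, 14.9, 18.2 and 24.4 (A_23_P160668) in NS-si, Sp1-si, NS-si → CoCl2 and Sp1-si → CoCl2 cells. Both were highest in Sp1-si → CoCl2 cells. With normexp this did not hold for the dimmer probe, whose log2 ratios there were -0.24 to NS-si → CoCl2 and -0.02 to Sp1-si cells. The brighter probe was higher there than in NS-si → CoCl2 cells, with a log2 ratio of 0.74 ± 0.10, and its CoCl2 ratio was 0.30 ± 0.08 in Sp1-si and -0.11 ± 0.10 in NS-si cells, where it turned positive with normexp. The dimmer probe gave no step between neighbouring arrays of more than 2 SD.

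MAX, the shared partner, was higher with Sp1-si than with NS-si on all of its 3 probes, which are annotated to different transcripts. The brightest (A_23_P205549) read 4968 in NS-si cells, 7690 with Sp1-si, 6082 in NS-si → CoCl2 and 10756 in Sp1-si → CoCl2 cells, and each step in the scaled order exceeded 2 SD. The other 2 read 195, 240, 248 and 352 (A_23_P151662) and 50.5, 72.5, 39.7 and 91.6 (A_23_P436138). On each of the 3, Sp1-si → CoCl2 was the highest array. The Sp1-si log2 ratio without CoCl2 was 0.68 ± 0.03, 0.35 ± 0.06 and 0.58 ± 0.10, and under CoCl2 it was 0.43 ± 0.03, 0.11 ± 0.05 and 0.81 ± 0.11. With CoCl2 in NS-si cells it was 0.52 ± 0.03 and 0.57 ± 0.06 on the brighter pair and -0.12 ± 0.12 on the dimmest. The latter turned positive with normexp. The nearest patterns to the brightest MAX probe were those of ITGB2 (distance 0.03), LIN37 (0.09) and CCDC28B (0.11).

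MXI1, a repressor that pairs with MAX, had 1 probe (A_23_P161399), which read 382 in NS-si cells, 1148 with Sp1-si, 1185 in NS-si → CoCl2 and 4060 in Sp1-si → CoCl2 cells. NS-si was the lowest and Sp1-si → CoCl2 the highest array, with the single treatments between them and 0.22 ± 0.03 apart after scaling. CoCl2 gave 1.86 ± 0.04 on the log2 scale with NS-si and 1.60 ± 0.03 with Sp1-si. Sp1-si gave 1.64 ± 0.03 without and 1.38 ± 0.03 under CoCl2. In these 4 comparisons, 0.932%, 1.25%, 1.66% and 3.04% of all probes had a higher ratio. The single ratios to NS-si add up to 3.50, and with both treatments the log2 ratio was 3.24. The CoCl2 ratio was thus lower by 0.26 ± 0.05 with Sp1-si than with NS-si, a difference that 27.0% of all probes lay below and that turned to 0.19 without scaling. The nearest patterns, farther off than those of MYC and MAX, were RAP2B (distance 0.35), ARRDC4 (0.42) and LOXL2 (0.45).

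MXD1, a repressor that is typically switched on as cells differentiate, had a bright probe (A_24_P379750) that read 1911 in NS-si cells, 3082 with Sp1-si, 4243 in NS-si → CoCl2 and 6369 in Sp1-si → CoCl2 cells. The dimmer probe (A_23_P408094) read 156, 246, 379 and 174. Both were higher with either single treatment, and they parted on the Sp1-si → CoCl2 array, which was the highest on the bright probe and, after scaling, within 2 SD of NS-si on the dim one. CoCl2 in NS-si cells gave 1.38 ± 0.03 and 1.51 ± 0.05, and Sp1-si without CoCl2 gave 0.74 ± 0.03 and 0.71 ± 0.06. In Sp1-si cells, CoCl2 gave 0.82 ± 0.03 on the bright and -0.73 ± 0.06 on the dim probe, and Sp1-si under CoCl2 gave 0.19 ± 0.03 and -1.52 ± 0.05. The CoCl2 ratio was lower with Sp1-si than with NS-si on both, with log2 differences of -0.55 ± 0.04 and -2.23 ± 0.08.

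MXD4, another MAX-binding repressor, was higher with Sp1-si than with NS-si on all of its 3 probes, with log2 ratios of 1.28 ± 0.03, 0.48 ± 0.03 and 1.49 ± 0.04. The brightest (A_23_P423695) read 2089 in NS-si cells, 4901 with Sp1-si, 2869 in NS-si → CoCl2 and 4852 in Sp1-si → CoCl2 cells. The others read 1462, 1965, 1746 and 2749 (A_23_P259490) and 424, 1146, 562 and 1544 (A_24_P234732). The NS-si array was the lowest on each of them after scaling. With CoCl2 in NS-si cells the ratios were 0.68 ± 0.03, 0.48 ± 0.03 and 0.63 ± 0.04. In Sp1-si cells CoCl2 gave -0.24 ± 0.03 on the brightest probe and 0.26 ± 0.03 and 0.21 ± 0.03 on the others, so that their signs differed. Sp1-si under CoCl2 gave 0.36 ± 0.03, 0.26 ± 0.03 and 1.06 ± 0.04.

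MXD3, a repressor found mainly in dividing cells, differed little on its brighter probe (A_23_P124559), which read 250, 270, 221 and 362 in NS-si, Sp1-si, NS-si → CoCl2 and Sp1-si → CoCl2 cells. Its log2 ratios were 0.05 ± 0.05 and 0.20 ± 0.05 for CoCl2 in NS-si and Sp1-si cells and 0.17 ± 0.06 and 0.32 ± 0.05 for Sp1-si without and under CoCl2. The first was within 2 SD of 0 and turned negative without scaling. The other probe (A_24_P417706) was at the limit of detection. It read 6.50 in NS-si cells, where it was not well above background, and 13.4, 15.3 and 15.7 on the other arrays, where it was. Against 7.39, the lowest NS-si signal that was well above background, it was at least 2.42-fold higher in NS-si → CoCl2 and at least 1.88-fold higher in Sp1-si cells, but with normexp these bounds were 1.31-fold and 1.12-fold. Its SD between spots at such signals was 0.20 to 0.36 on the log2 scale.

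MNT, a repressor present in most cells that pairs with MAX and MLX, had 1 probe (A_23_P341443), which read 2954 in NS-si cells, 4664 with Sp1-si, 5036 in NS-si → CoCl2 and 7373 in Sp1-si → CoCl2 cells. The order was the same after scaling, and each step was more than 2 SD. CoCl2 gave 0.99 ± 0.03 on the log2 scale in NS-si cells, 1.99-fold and so just under the threshold, and 0.44 ± 0.03 in Sp1-si cells. Sp1-si gave 0.71 ± 0.03 without and 0.15 ± 0.03 under CoCl2.

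Counted together, the 9 probes of these 5 repressor genes were all above 0 for CoCl2 in NS-si cells, 8 of them by more than 2 SD, and all above 0 by more than 2 SD for Sp1-si without CoCl2. Both ratios share the NS-si array. The first count was 8 without scaling, the exception being the brighter MXD3 probe, and the second was 9 under each of the 7 other scalings, background corrections and spot filters. Of all probes, 52.1% and 48.6% were above 0 in these comparisons. Past 2 SD in either direction were 17 and 18 of the 21 member probes. The SD covers the spread within an array only, and the share of all probes past 2 SD is not given. No count past 2 SD here therefore sets the members apart from other probes. The dimmer MXD3 probe gave only bounds in both comparisons, which fell to 0.38 and 0.16 with normexp. It was not well above background in NS-si cells, and such a bound was kept only if above 0. Its sign was thus fixed in advance, and it adds nothing to these counts. In Sp1-si cells 7 of 9 were above 0 with CoCl2, and 7 of 9 were above 0 for Sp1-si under CoCl2. Of all probes, 47.0% and 44.6% were. The CoCl2 ratio was lower with Sp1-si than with NS-si on 7 of 8 probes with a value, with a median difference of -0.49, where 51.7% of all probes were lower and their median was -0.01, and without scaling on 4 of 8, with a median of -0.04. By comparison, of the 6 probes of MYC, MYCN and MYCL, 4 were above 0 for CoCl2 in NS-si cells and 3 for Sp1-si without CoCl2. These counts describe probes that share genes and arrays, and no difference between the groups of genes was tested.

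**Figure D3:**
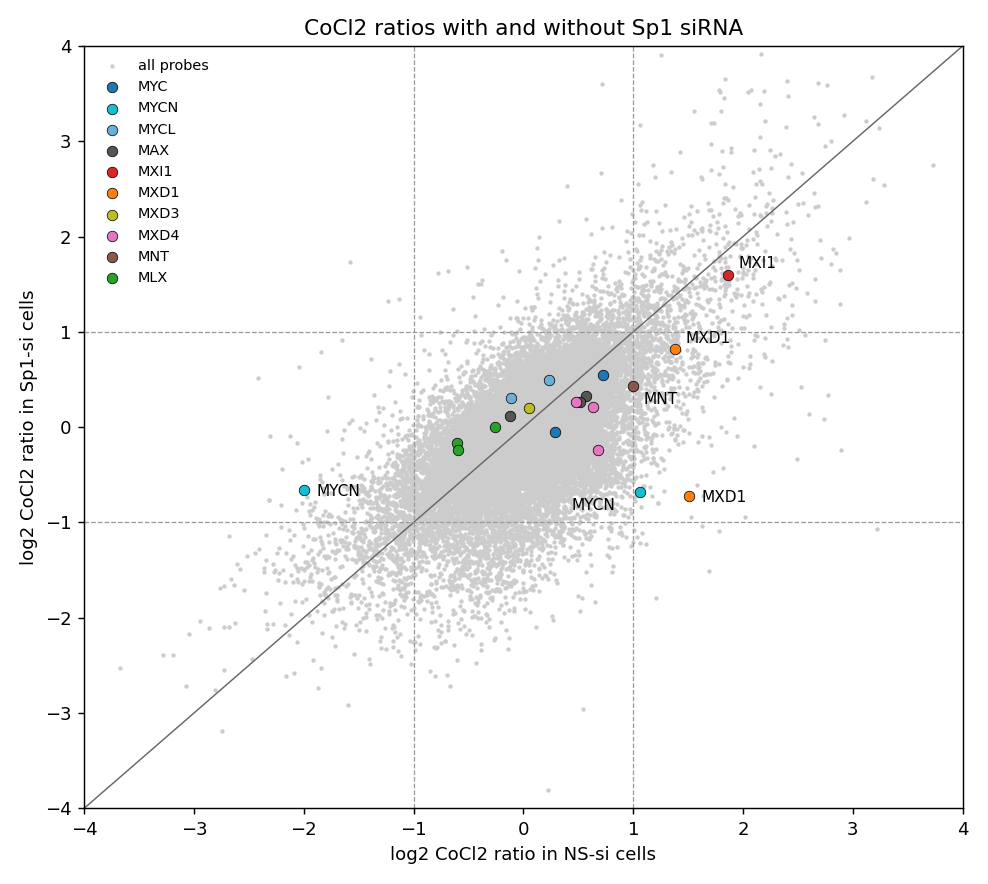
Log2 CoCl2 ratio in NS-si cells (horizontal axis) against that in Sp1-si cells (vertical axis) for the 30234 probes detected on every array, with the network probes in colour; 6 probes lie outside the axes. The line marks equal ratios and dashed lines mark 2-fold. MXI1 (1.86 and 1.60) lies near the line, and 1 probe each of MYCN and MXD1 lies in the lower right part, with 1.06 and -0.68 for MYCN and 1.51 and -0.73 for MXD1.

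MLX, the partner of MNT, MLXIP and MLXIPL, was lower with CoCl2 in NS-si cells on each of its probes, whereas in Sp1-si cells its CoCl2 ratios were nearer to 0. Its probes read 1572, 1378, 1124 and 1608 (A_23_P164148), 1183, 899, 666 and 937 (A_24_P13991) and 592, 570, 335 and 562 (A_24_P250176) in NS-si, Sp1-si, NS-si → CoCl2 and Sp1-si → CoCl2 cells. After scaling, all 3 had the same order, with NS-si → CoCl2 lowest, then Sp1-si → CoCl2, Sp1-si and NS-si, although the step between the Sp1-si arrays on the first probe and that between Sp1-si and NS-si on the last were within 2 SD. CoCl2 in NS-si cells gave -0.26 ± 0.04, -0.60 ± 0.04 and -0.60 ± 0.04. In Sp1-si cells it gave -0.001 ± 0.031, -0.16 ± 0.03 and -0.25 ± 0.04, of which the first turned positive with median scaling, with no scaling and with normexp, and the second without scaling. Sp1-si under CoCl2 gave 0.12 ± 0.03, 0.10 ± 0.04 and 0.35 ± 0.04.

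Genes that work with the network or answer to it were read from 6 lists, each gene by its brightest probe. Of all their genes with a value, 18 passed the threshold in at least 1 of the 4 comparisons, and these are named below, with SDs between spots of 0.02 to 0.11. Of their 30 ratios past the threshold, 7 fell short of it under at least 1 of 7 other settings, as given beside them. The share of all genes past the threshold in each direction is that given above, 3.54% to 8.03%. Among 5 network relatives (MGA, MLXIP, MLXIPL, MYCBP and MYCBP2), none passed. MLXIPL, a glucose-responsive partner of MLX, had CoCl2 ratios of 0.52 with NS-si and 0.95 with Sp1-si. MYCBP, which binds MYC, had Sp1-si ratios of -0.74 without and -0.92 under CoCl2.

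Of the corepressor genes through which MNT and the MXD proteins act, 8 of 9 were matched on the array (all but SIN3B). The median of their log2 ratios was -0.11 and -0.01 for CoCl2 in NS-si and Sp1-si cells and 0.30 and 0.29 for Sp1-si without and under CoCl2, where the median of all genes lay between -0.03 and 0.00. Without scaling the second of these was 0.22. SIN3A, the scaffold of the complex, read 522 in NS-si cells, 1673 with Sp1-si, 702 in NS-si → CoCl2 and 2958 in Sp1-si → CoCl2 cells, with Sp1-si ratios of 1.73 and 1.68. SAP30, another subunit, read 942, 1718, 2636 and 5959, with CoCl2 ratios of 1.71 and 1.57. These 2 thus stood higher with the same treatments as MXI1, SIN3A past the threshold for Sp1-si and SAP30 for CoCl2. They were the only 2 of the 8 genes above 0 for CoCl2 in NS-si cells, where 6 were below. Above 0 were 4 of the 8 for CoCl2 in Sp1-si cells, 5 for Sp1-si without CoCl2 and 6 under CoCl2. RBBP7, a histone-binding subunit, was at -1.34 for Sp1-si under CoCl2, and at -0.95 without scaling.

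Of 18 MYC cofactor and turnover genes, 1 was past the threshold upward and none downward for CoCl2 in NS-si cells, 2 and none in Sp1-si cells, 2 and 2 for Sp1-si without CoCl2 and none and 2 under CoCl2. Their medians were -0.05, 0.12, 0.03 and 0.33, and without scaling -0.27, 0.34, -0.02 and 0.73. PIM1, a kinase that stabilizes MYC, read 137 in NS-si cells, 414 with Sp1-si, 848 in NS-si → CoCl2 and 1719 in Sp1-si → CoCl2 cells, with CoCl2 ratios of 2.85 and 1.83 and Sp1-si ratios of 1.64 and 0.62. SKP2, which marks MYC for degradation, was lower in Sp1-si cells, with ratios of -2.04 without and -2.21 under CoCl2. For Sp1-si without CoCl2, KAT5, an acetyltransferase recruited by MYC, was at 1.19 and the mitotic kinase PLK1 at -1.13. USP28, a deubiquitinase of MYC, was at 1.01 for CoCl2 in Sp1-si cells, and at 0.52 with normexp. CIP2A, which protects MYC from a phosphatase, was at -1.004 for Sp1-si under CoCl2, and short of the threshold under 5 of the 7 other settings, down to -0.61 without scaling.

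Of 42 genes that MYC is known to activate, 40 were matched, and their medians were -0.09 and -0.08 for CoCl2 in NS-si and Sp1-si cells and -0.11 and -0.08 for Sp1-si without and under CoCl2. RRS1, a ribosome assembly factor, was past the threshold downward with CoCl2 in NS-si (-1.03) and Sp1-si cells (-1.13, but -0.91 without scaling), and LDHA, a glycolytic enzyme that HIF1 also activates, was past it upward in Sp1-si cells (1.39). For Sp1-si, none was past it in either direction, without or under CoCl2. Of 12 genes that MYC is known to repress, 11 had a value, and their medians were 0.40 and 0.35 for CoCl2 in NS-si and Sp1-si cells and 0.00 and 0.04 for Sp1-si without and under CoCl2. NDRG1, also a known hypoxia-responsive gene, had CoCl2 ratios of 2.24 and 2.45, and GADD45A, a DNA damage-inducible gene, 0.80 and 1.01, the latter just under 1 with quantile normalization (0.98). CDKN1C, a cell cycle inhibitor, had Sp1-si ratios of 1.46 and 1.22, and CEBPA, a differentiation factor, was at -1.36 for Sp1-si under CoCl2, and at -0.97 without scaling. Without scaling the medians of the activated genes were -0.31, 0.15, -0.16 and 0.31 in the order above, so that 2 of the 4 turned positive, and those of the repressed genes were 0.18, 0.57, -0.05 and 0.43.

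Of 7 target genes of MLX, MLXIP and MLXIPL, TXNIP, an inhibitor of glucose uptake, spanned the widest range. It read 2137 in NS-si cells, 14669 with Sp1-si, 812 in NS-si → CoCl2 and 11024 in Sp1-si → CoCl2 cells. Both Sp1-si arrays were far above both NS-si arrays, and each CoCl2 array was below its partner. The Sp1-si log2 ratios were 2.83 without and 3.37 under CoCl2, and the CoCl2 ratios were -1.17 with NS-si and -0.64 with Sp1-si. ARRDC4, a paralog of TXNIP, had the opposite sign under CoCl2, with 2.001 with NS-si and 1.17 with Sp1-si, and was at 1.68 for Sp1-si without CoCl2. PKLR, a pyruvate kinase gene, was at -1.03 for Sp1-si without CoCl2, and at -0.71 with normexp. The medians of the list were 0.09, 0.31, 0.15 and -0.09, of which the first turned to -0.14 and the last to 0.30 without scaling.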

How the data were processed

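Total RNA was labelled with Cy3 and hybridised to 4 one-colour Agilent arrays on 1 slide. The processed intensities were deposited by the authors as Feature Extraction 10.5.1.1 wrote them, background-subtracted and not normalized between arrays. The array design was annotated on hg18, so no probe coordinates are given. The deposited value table, of intensity too, equals the processed signal times 1 constant per array, and the methods name no normalization.

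Here, log2 signals minus the 75th percentile of each array were used, with outlier spots left out and the rest averaged per probe. Detection (well above background) needed at least 50% of these spots, and a ratio with only 1 such side is a bound. Symbols were matched by accession (28458 of 29296 RefSeq spots). The members and gene lists were chosen with earlier results of these data known. Named are all members, SP1, the 2 highest and 2 lowest genes of each list in each ratio (those past a log2 ratio of 1 in the main, with the others given by counts), and the 3 nearest probes to MYC, MAX and MXI1 by Euclidean distance over the ratios to NS-si. Alternatives were other scalings, the value table, normexp (offset 50, on the median spot and background signals because the mean signal was not among the columns), outlier spots kept, other filters, 1.5-fold and the mean over probes. Of the CCC markers listed, 1 is not reported here. The counting was tested on simulated data with planted changes larger than the threshold, in probes well above background. These data held spread between spots but none between cultures, so they check the counting steps only. Python 3.11.15, numpy 2.4.6, pandas 2.3.3, matplotlib 3.10.9, R 4.3.3 and limma 3.58.1 were used.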

Additional observations from a re-analysis of the deposited data

Results flagged for a closer look

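A pair of network probes had CoCl2 ratios of opposite sign in NS-si and Sp1-si cells, each at least 1.5-fold. The probe A_23_P303390 of MYCN was at a log2 ratio of 1.06 with NS-si but -0.68 with Sp1-si, and they differ by -1.74. The probe A_23_P408094 of MXD1 had 1.51 and -0.73, with a difference of -2.23. The difference was not tested in either case, since each value rests on 1 spot per array. Such opposite ratios were found for 194 of 30234 probes (0.642%). The second probe of each gene did not show them: MYCN A_24_P94402 had -1.999 and -0.66, and MXD1 A_24_P379750 had 1.38 and 0.82.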

How the results depend on the processing

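Each ratio compares 1 array with 1 array. No paired analysis was possible because there is 1 sample per condition and no test. At a threshold of 1.5-fold, 12 of 21 member probes were past it instead of 6 for CoCl2 in NS-si cells. For CoCl2 in Sp1-si cells there were 5 instead of 1, and for Sp1-si without CoCl2 8 instead of 3. Of all probes, 4132 were then past it upward and 3650 downward out of 32849 in the first comparison. In the second these were 3455 and 4895 of 32302, and in the third 4247 and 4516 of 33024. Without scaling, 2 member probes instead of 1 were past 2-fold for CoCl2 in Sp1-si cells and 7 instead of 5 for Sp1-si under CoCl2. Instead of the 6 for CoCl2 in NS-si cells, there were 7 with median scaling, 5 without scaling and 4 with normexp. The log2 CoCl2 ratio of MYCN in NS-si cells reversed to -0.47 as the mean over its probes, which oppose each other. Of 50 ratios of member genes, 12 changed sign under some alternative, among them 1 of the 9 of size 1 or more. The probes past 2-fold upward and downward among all probes shifted with scaling: 1490 and 1428 became 928 and 2347 without scaling and 692 and 385 with normexp for CoCl2 in NS-si cells. For CoCl2 in Sp1-si cells, 1217 and 2020 became 2085 and 1209 without scaling and 1538 and 1606 with median scaling. For Sp1-si under CoCl2, 2057 and 3143 became 4620 and 1452 without scaling, 2584 and 2557 with median scaling and 2474 and 2552 with quantile normalization. For the difference of the CoCl2 ratios, 317 and 1471 became 1945 and 358, 461 and 1158, and 468 and 1200 in the same order of settings. Near background, as for MYCL, MXD3 A_24_P417706 and MYC A_24_P38363, the signal over background limits the ratios.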
